A study of Mus musculus with 6 samples.

Results

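NRF2, the transcription factor encoded by Nfe2l2, and the genes it drives make up the cell's main inducible defence against oxidants and electrophiles. In resting cells the adaptor KEAP1 holds NRF2 in a ubiquitin ligase complex that sends it for degradation. When KEAP1 is modified by electrophiles, NRF2 accumulates, pairs with small MAF proteins and binds antioxidant response elements near its target genes. In lung fibroblasts the pathway is known for setting glutathione synthesis, quinone detoxification and haem breakdown.

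The set described here held 10 genes, chosen by name with earlier results of these data known. They were Nfe2l2 and its inhibitor Keap1, and the targets Hmox1, Nqo1, Gclc, Gclm, Srxn1, Txnrd1, Taldo1 and Abcc1. Every array probe annotated to one of these symbols was taken, which gave 20 of the 45281 probes and 10 of the 19057 genes with a symbol on the array. Of the 20 probes, 15 were detected on at least 3 of the 6 arrays and were tested. They covered 9 genes, and the other 5 probes were detected on no array. The comparison used 6 arrays, each from a different mouse aged 10 weeks. Of these, 3 came from wild-type animals (wt, p38+/+) and 3 from p38ki/ki animals (ki), which carry a p38 allele labelled ki on both chromosomes. The cells of both genotypes were lung fibroblasts, cultured in DMEM/F12 medium with 15% fetal calf serum and used at passage 1. The sources used here do not say which p38 gene carried the allele, what the allele changed, or the sex of the mice. p38 kinases are stress-activated protein kinases, and the comparison asked how the transcripts of the NRF2 pathway stood in the ki cultures.

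Detection was similar on all 6 arrays, at 38.87% to 40.92% of probes, and the mean deposited signal was 846.7, 735.5 and 712.3 on wt arrays 1 to 3 and 684.4, 519.4 and 694.7 on ki arrays 1 to 3, so that every wt array was brighter than every ki array before normalisation. All 10 fibroblast markers were detected on every array. Fewer cells of a type and less RNA per cell cannot be told apart in these cultures, and other cell types were present: 8 of 9 macrophage markers were detected on all 6 arrays. The summed level of the 9 macrophage markers ranged from 132058 to 135556 in wt and from 122897 to 130242 in ki, with 1 marker higher in ki and 2 lower. Summed mesothelial markers ranged from 1520 to 1753 in wt and from 10414 to 11163 in ki, with 9 of 9 higher. Summed neutrophil markers ranged from 12544 to 13241 in wt and from 2886 to 3291 in ki, with 8 of 8 lower. Summed fibroblast markers ranged from 125480 to 135183 in wt and from 106668 to 113098 in ki, with 5 of 10 lower. Of 7 lung epithelial markers, 4 (Epcam, Sftpc, Sftpb and Foxj1) were not detected on enough arrays to be tested, and 1 of the other 3, Cdh1, was higher. The part of these cell types in the results below was not tested.

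Promoter windows from RefSeq (build GRCm38.p6, 250 bases before to 50 bases after a transcript start) were matched for 7 of the 10 genes, in 9 windows. No window was available for Hmox1, Gclc and Abcc1, so their promoters are not described. The core of the antioxidant response element, TGACNNNGC, was searched on both strands, as was the AP-1 site TGAGTCA. The core lay in 4 of the 9 windows, those of Nfe2l2, Gclm and Srxn1 and 1 of the 3 of Txnrd1, against 12.4% of all 32851 mouse windows. The AP-1 letters were found in the Srxn1 window alone among the 7 genes, at 2 places, against 5.2% of all windows. These are matches of letters, not measured binding sites, and the windows leave out distal enhancers. The stretches that hold the core are printed below because they show how the letters that define the pathway lie at its own genes. The window of Me1, an NADPH-supplying target described further on, is added because both motifs overlap in it. Each sequence reads 5′ to 3′ on the gene's strand, with the matches in capitals.
Srxn1 (chr2:152105274-152105573, plus strand): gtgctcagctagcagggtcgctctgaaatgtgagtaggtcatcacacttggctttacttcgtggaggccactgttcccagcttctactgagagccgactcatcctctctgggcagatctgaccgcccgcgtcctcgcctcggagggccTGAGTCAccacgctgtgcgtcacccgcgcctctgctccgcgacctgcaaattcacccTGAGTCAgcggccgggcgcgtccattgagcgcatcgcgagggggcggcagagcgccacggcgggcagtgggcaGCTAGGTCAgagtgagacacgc
Gclm (chr3:122245378-122245476, plus strand): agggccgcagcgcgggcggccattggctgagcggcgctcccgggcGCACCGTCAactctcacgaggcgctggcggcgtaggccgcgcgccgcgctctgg
Nfe2l2 (chr2:75704850-75704913, minus strand): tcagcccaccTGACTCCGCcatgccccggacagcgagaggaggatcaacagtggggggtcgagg
Txnrd1 (chr10:82859069-82859167, plus strand): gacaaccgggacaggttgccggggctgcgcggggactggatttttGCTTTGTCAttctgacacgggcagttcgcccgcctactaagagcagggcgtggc
Me1 (chr9:86695867-86695965, minus strand): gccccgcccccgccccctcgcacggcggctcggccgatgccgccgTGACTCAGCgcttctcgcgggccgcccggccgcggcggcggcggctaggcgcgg
In Srxn1 the AP-1 letters began 102 and 45 bases before the transcript start and the searched core lay on the opposite strand from base 29 after it. Variants of the core were not searched. The AP-1 place 45 bases before the Srxn1 start reads TGAGTCAGC, with G where the searched core has C, and is not counted as a core. The core of Gclm began 134 bases, that of Nfe2l2 240 bases, that of Txnrd1 92 bases and that of Me1 6 bases before the start. In Me1 the core and the AP-1 letters share the same bases. Of the windows of Keap1, Nqo1 and Taldo1, none held either motif.

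In the ki cultures Hmox1 fell 1.41-fold and Taldo1 rose 1.35-fold. Abcc1 also passed as lower, at a level close to background where the size of its difference is uncertain (-0.90 to -0.27 over the alternatives). The other 6 genes tested did not pass the threshold, an adjusted p under 0.05 over all 10412 genes. Of these, Nqo1, Gclm, Srxn1 and Nfe2l2 had ki levels below wt, and Txnrd1 and the brightest probe of Keap1 lay near 0. The counts were 1 of 9 higher (11.1%) and 2 of 9 lower (22.2%). Over all genes tested, 8.71% passed higher and 7.49% lower, 16.2% in all. The median difference of the 9 genes was -0.23 on the log2 scale, where the median over all genes was 0.007. The members were chosen with earlier results of these data known, so these comparisons with all genes only describe the 9 genes. Differences throughout are ki minus wt on the log2 scale with their standard error (SE), levels are normalised log2 intensities, and n = 3 mice per genotype. Precision is limited by the small number of arrays. With 9 genes the counts are small, and the list as a whole was given no test.

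**Figure D1:**
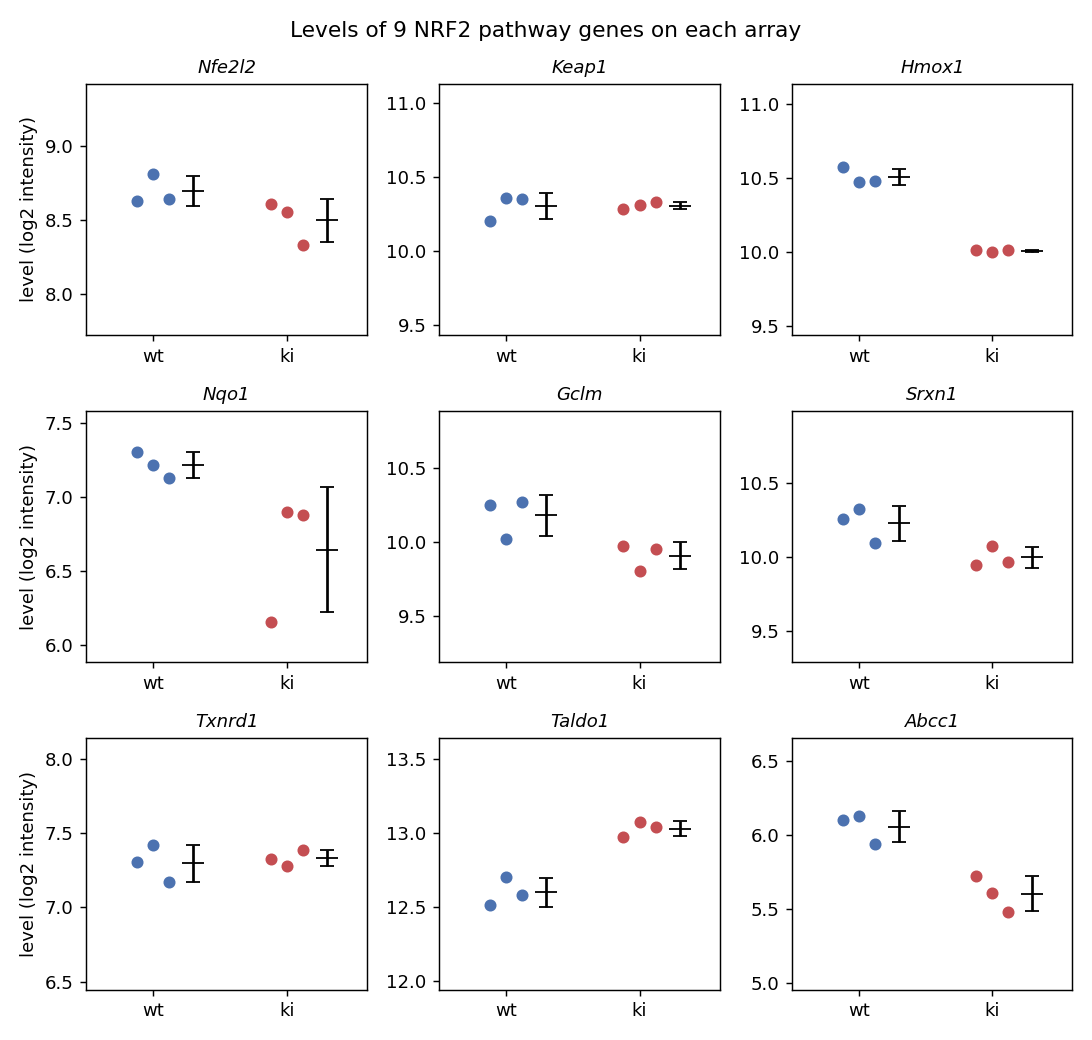
Normalised level (log2 intensity, y axis) of each of the 9 tested genes on the 3 wt and 3 ki arrays (points), with the mean and SD of each genotype beside them (bars); every panel spans the same number of log2 units. The ki points of Hmox1, Abcc1, Nqo1, Gclm, Srxn1 and Nfe2l2 lie below all wt points and those of Taldo1 above. Those of Keap1 and Txnrd1 lie among the wt points. Separation of this kind held for 38.4% of all genes tested.

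Hmox1 encodes haem oxygenase 1, which breaks haem into biliverdin, carbon monoxide and iron and is the most strongly inducible of the classical NRF2 targets. The gene lies at chr8:75093618-75100593 (GRCm38.p6). Its probe stood at 10.57, 10.47 and 10.48 on wt arrays 1 to 3 and at 10.01, 10.00 and 10.01 on ki arrays 1 to 3. All ki arrays lay below all wt arrays, and the ki arrays differed little from each other. Before normalisation the deposited signals were 1832, 1468 and 1448 in wt and 1033, 742 and 1035 in ki. They did not overlap either, on arrays whose mean signal also separated the genotypes with ki lower. The difference was -0.50 (SE 0.0704, adjusted p = 0.00473, 95% interval -0.67 to -0.33). It kept its sign in 18 of 18 processing alternatives (-0.74 to -0.46) and passed in 17 of them. It did not pass with both wt replicate 1, the brightest wt array, and ki replicate 2, the dimmest ki array, left out (-0.464, adjusted p = 0.0654). Hmox1 is also a gene of haem-recycling macrophages, and the summed macrophage markers given above were 122897 to 130242 in ki against 132058 to 135556 in wt. Single macrophage markers were mixed: Adgre1 was higher (0.40), C1qa and C1qc were lower (-0.33 and -0.42), and 6 did not pass. The part of macrophages in the Hmox1 difference was not tested.

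Other genes of haem and iron handling did not pass. Of 8 tested, 0 were higher and 0 lower by limma's moderated test, and 0 of 8 reached an unadjusted p under 0.05. Hmox2, the constitutive haem oxygenase, differed by -0.06 (SE 0.0877), and the biliverdin reductase Blvrb, which acts on the product of haem oxygenase, by 0.08. The nearest to the threshold were Slc48a1, a haem transporter (0.18, adjusted p = 0.187), and Blvra, the other biliverdin reductase (0.15, adjusted p = 0.292). The ferritin chains Fth1 and Ftl1, which store the freed iron, differed by 0.02 and 0.04.

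Taldo1 encodes transaldolase, an enzyme of the non-oxidative pentose phosphate pathway, whose oxidative arm yields NADPH. It was the only member to pass as higher at its brightest probe. A dimmer Keap1 probe also passed higher, as given below. Its levels were 12.51, 12.70 and 12.58 in wt and 12.97, 13.07 and 13.04 in ki. The genotypes did not overlap, and the difference was 0.43 (SE 0.0816, adjusted p = 0.0147, 95% interval 0.24 to 0.63). The deposited signals before normalisation did overlap, at 7300, 7106 and 6463 in wt and 7830, 6229 and 8235 in ki, since ki array 2 was the dimmest of all. The call rests on the normalisation and on single arrays. With arrays scaled to their own medians, Taldo1 differed by 0.099 (SE 0.184, adjusted p = 0.721). Here and below, that scaling put the median gene at -0.217. It used the median of all probes, of which 38.87% to 40.92% were detected per array. Scaled on probes detected on all arrays, Taldo1 differed by 0.306 (adjusted p = 0.0475). Without wt replicate 1 (0.391, adjusted p = 0.0562) or wt replicate 3 (0.422, adjusted p = 0.0546), Taldo1 missed the threshold. It also missed it without the brightest wt and dimmest ki arrays together (0.367, adjusted p = 0.129). Its sign was positive in all 18 alternatives.

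Of the 3 tested genes on the NADPH supply list, which also holds Tkt of the non-oxidative arm, 1 fell and 0 rose. Over all genes tested, 7.49% passed lower. Me1, the cytosolic malic enzyme, which makes NADPH from malate, stood at 8.62, 8.47 and 8.55 in wt and 7.79, 7.92 and 7.85 in ki. Every ki array was lower than every wt array, a fall of 1.62-fold (-0.69, SE 0.0795, adjusted p = 0.00214), and it passed in 18 of 18 alternatives. Its promoter stretch is the one printed above in which the core and the AP-1 letters coincide. Among the 14 list genes that passed, 9 had promoter windows, 12 in all. The core lay in 3 of the 12, those of Me1, Gsta3 and Mgst1, against 12.4% of all windows. The AP-1 letters lay at 3 genes, Me1, Aldh1a1 and Gstp1. All of these but Me1 passed as higher, and a link of motif to direction was not tested. Tkt, the transketolase that works beside transaldolase, differed by 0.22 (adjusted p = 0.151) and the NADP-dependent isocitrate dehydrogenase Idh1 by 0.11 (adjusted p = 0.425). Pgd was not detected on enough arrays and G6pdx had no probe under that symbol.

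Abcc1 encodes MRP1, an exporter of glutathione conjugates and of glutathione disulphide. Its symbol was on 3 probes, and all were dim. The brightest stood at 6.10, 6.13 and 5.94 in wt and 5.72, 5.61 and 5.48 in ki, and was detected on 3 wt arrays but only on ki array 1. The ki arrays lay below the wt arrays, with a fitted difference of -0.45 (SE 0.0957, adjusted p = 0.0223) that rests on values not above background on ki arrays 2 and 3. Its size depended on the treatment of background: it was -0.282 with an offset of 50, -0.812 with no further background correction and -0.903 with the authors' normalised intensities. On the deposited scale its signals were 61.2, 53.7 and 44.5 in wt and 33.9, 24.2 and 27.9 in ki. The second probe, annotated to a cDNA clone accession and detected on 1 wt and 2 ki arrays, overlapped between genotypes and differed by -0.09 (SE 0.214, adjusted p = 0.819 over all probes). The third was detected on no array. The fall passed in 8 of the 17 alternatives that could test it, with adjusted p from 0.0224 to 0.184. It was lost with the mean of the gene's probes (-0.271, adjusted p = 0.184) and with eBayes with trend and robust (adjusted p = 0.14). It was also lost when arrays were scaled to their medians (-0.496, adjusted p = 0.0513) or to the median of probes detected on all arrays (-0.289, adjusted p = 0.0845). Without wt replicate 1, wt replicate 2, ki replicate 2 or ki replicate 3 it missed the threshold too, at adjusted p = 0.0788, 0.082, 0.0579 and 0.0605.

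Among the other exporters of the same families 1 of 4 tested fell and 0 rose, where 7.49% of all genes passed lower. Abcc3, an exporter of organic anions and glucuronides, was at 9.35, 9.68 and 9.49 in wt and 9.05, 9.03 and 8.83 in ki. Its groups did not overlap and it was 1.45-fold lower (-0.54, SE 0.112, adjusted p = 0.0212). It missed the threshold without wt replicate 2, wt replicate 3 or ki replicate 3 (adjusted p = 0.0642, 0.0647 and 0.0593). Abcc4 differed by 0.28 (adjusted p = 0.155), Abcb6 by -0.24 (adjusted p = 0.125) and Abcc5 by 0.11, and Abcc2 and Abcg2 were not detected on enough arrays.

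Nqo1, Gclm and Srxn1 are targets that respond to NRF2 in most cell types. None of the 3 passed, although the ki arrays lay below the wt arrays for each at the brightest probe. Separation of that kind was common on these arrays: it held for 7 of the 9 genes tested and for 38.4% of all 10412 genes, 18.1% with ki lower and 20.3% with ki higher. An unadjusted p under 0.05 with ki lower was met by 5 of the 9 genes, these 3 with Hmox1 and Abcc1, and by 14.6% of all genes. Nqo1 encodes a quinone reductase. It stood at 7.31, 7.22 and 7.13 in wt and at 6.16, 6.90 and 6.88 in ki, with ki array 1 far below the other ki arrays. The difference of -0.57 carried the largest error of the 9 genes (SE 0.201, adjusted p = 0.108, 95% interval -1.05 to -0.09). Its second probe was detected on no array. Without ki replicate 1 the difference was -0.331 (adjusted p = 0.0827), and it ranged from -0.75 to -0.33 over the 18 alternatives. Nqo1 passed in 2 of them. These were scaling to array medians (-0.751, adjusted p = 0.00197), where the median gene stood at -0.217, and eBayes with trend and robust (adjusted p = 0.0409).

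Glutathione is made by glutamate-cysteine ligase, whose catalytic subunit is encoded by Gclc and whose modifier subunit by Gclm. The single Gclc probe was not above background on any array, with detection p from 0.151 to 0.587, so no difference is given for it. Gclm stood at 10.25, 10.02 and 10.27 in wt and at 9.97, 9.80 and 9.95 in ki. The groups were separate but close, and the difference of -0.27 (SE 0.0999, adjusted p = 0.122, 95% interval -0.51 to -0.03) did not pass. It passed in 1 of 18 alternatives, eBayes with trend and robust (adjusted p = 0.0254). Where 7.49% of all genes passed lower, 1 of 5 other tested genes of glutathione synthesis and recycling fell and 0 rose. That gene was Slc7a11, the cystine importer that supplies the cysteine of glutathione, at 8.58, 8.71 and 8.77 in wt and 8.22, 8.24 and 8.44 in ki. All ki arrays were lower, by 1.31-fold (-0.39, SE 0.0951, adjusted p = 0.036), and its other tested probe gave -0.34 (adjusted p = 0.131 over all probes). Slc7a11 missed the threshold without wt replicates 1, 2 or 3 (adjusted p = 0.0576, 0.11 and 0.111), without ki replicates 1 or 2 (adjusted p = 0.106 and 0.096) and with no detection filter (adjusted p = 0.0663). Its partner chain Slc3a2 differed by -0.55 (SE 0.16, adjusted p = 0.0617), Glrx, a glutaredoxin, by 0.20 (adjusted p = 0.125), Ggct by -0.10 and the glutathione synthetase Gss by 0.01.

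Srxn1 encodes sulfiredoxin, which restores over-oxidised peroxiredoxins, and its promoter window is the one printed in full. All 3 of its probes were tested, and their differences were all below 0. The brightest stood at 10.26, 10.33 and 10.10 in wt and 9.95, 10.08 and 9.97 in ki, a difference of -0.23 (SE 0.0886, adjusted p = 0.132). The second stood at 9.06, 9.19 and 9.06 in wt and 8.67, 8.90 and 8.62 in ki. Its groups were separate too, with a difference of -0.37 (SE 0.0987) that fell just short among all 18249 probes (adjusted p = 0.0517). The third and dimmest, detected on 3 wt and 2 ki arrays, overlapped between genotypes and differed by -0.75 (SE 0.293, adjusted p = 0.146 over all probes). When a gene's probes were averaged, this dimmest one included, Srxn1 differed by -0.451 and passed (adjusted p = 0.0466). Srxn1 passed in 2 of 18 alternatives, this one and eBayes with trend and robust (adjusted p = 0.0408).

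Txnrd1 encodes cytosolic thioredoxin reductase 1. Its probe stood at 7.31, 7.42 and 7.17 in wt and at 7.33, 7.28 and 7.39 in ki. The groups overlapped, and the difference of 0.03 (SE 0.0889, adjusted p = 0.838) had a 95% interval of -0.18 to 0.24. Of 8 other tested genes of the thioredoxin and peroxiredoxin system, 0 were higher and 0 lower by limma's moderated test, and 1, Txn1, had an unadjusted p under 0.05. Txn1, the cytosolic thioredoxin that this reductase serves, differed by 0.25 (SE 0.0972, adjusted p = 0.134). Txn2, the mitochondrial thioredoxin, differed by -0.20 (adjusted p = 0.248). The peroxiredoxins Prdx1, Prdx2, Prdx3 and Prdx4, the substrates of thioredoxin and, in part, of sulfiredoxin, differed by 0.10, 0.09, -0.17 and -0.04.

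Nfe2l2 itself stood at 8.63, 8.81 and 8.64 in wt and at 8.61, 8.55 and 8.33 in ki. The groups were separated only by the gap of 8.61 on ki array 1 to 8.63 on wt array 1. The difference of -0.19 (SE 0.103, adjusted p = 0.257) had a 95% interval of -0.44 to 0.05, it was below 0 in all 18 alternatives, and it passed in 0 of them (adjusted p 0.124 to 0.515). Its size varied, at -0.112 without ki replicate 3 and -0.405 with arrays scaled to their medians, where the median gene stood at -0.217. By limma's moderated test its unadjusted p was 0.103. Its second probe was detected on no array. Transcript level is only one control of NRF2, which is regulated mainly through the stability of its protein, and no protein was measured. The 5 named genes whose centred levels lay nearest to those of Nfe2l2 over the 6 arrays, by root-mean-square difference, were Cfap410 (0.0359), Ndufaf5 (0.0372), Stk11 (0.0377), Lbh (0.0411) and Nploc4 (0.0425). The median gene lay at 0.206.

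Keap1 had 5 probes, 4 of them detected on all 6 arrays, and they did not give the same answer. The brightest stood at 10.20, 10.36 and 10.35 in wt and at 10.28, 10.31 and 10.33 in ki. Its groups overlapped, with a difference of 0.005 (SE 0.0777, adjusted p = 0.975, 95% interval -0.18 to 0.19). The second stood at 9.81, 9.88 and 9.91 in wt and at 10.19, 10.19 and 10.17 in ki. There all ki arrays were higher, and the difference of 0.32 (SE 0.0701) passed among all 18249 probes (adjusted p = 0.0286), where 7.21% of probes passed higher. The other two detected probes differed by 0.07 (SE 0.117, adjusted p = 0.754) and 0.08 (SE 0.0724, adjusted p = 0.497). Under scaling to each array's median the brightest probe stood at -0.23, where the median gene stood at -0.217. Of these 4 probes, all annotated to the same transcript, 3 did not pass and 1 did. Over all members 2 probes passed higher and 2 lower, where 14.3% of all tested probes passed and 7.06% passed lower.

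**Figure D2:**
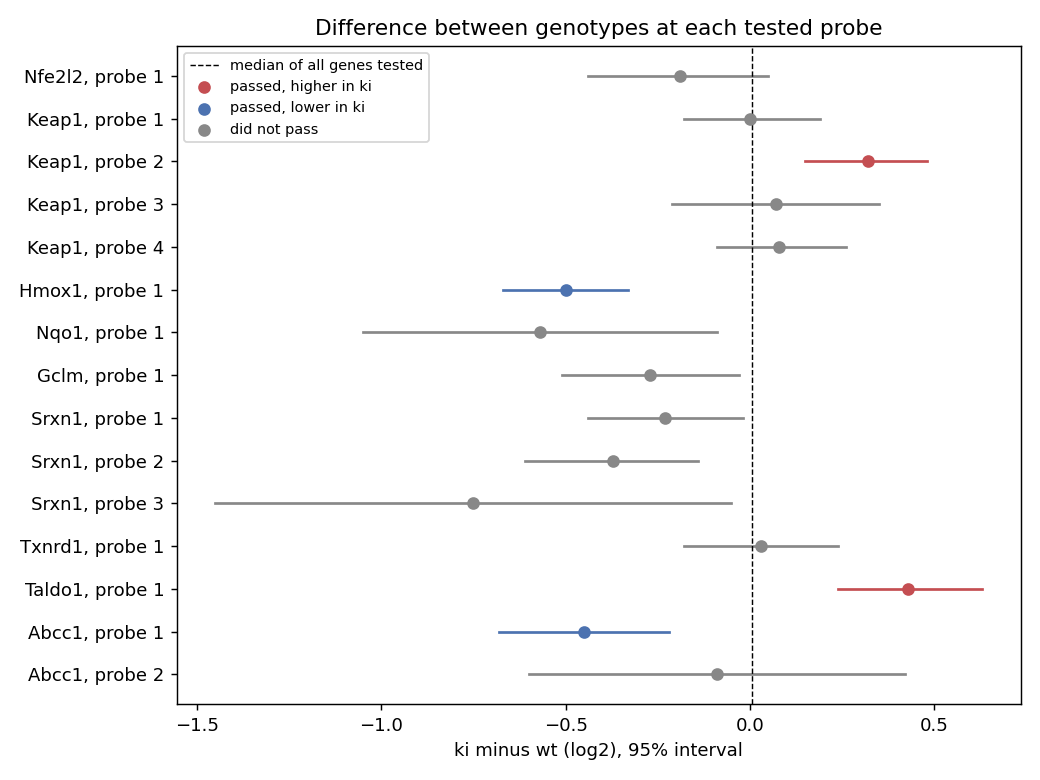
Difference ki minus wt (log2, x axis) with its 95% interval for each of the 15 tested probes of the 9 genes, probes of a gene numbered from the brightest down, and the median of all genes tested as a dashed line. The 3 Srxn1 probes all lie below 0, whereas 1 of 4 Keap1 probes lies clear above 0 and the other 3 have intervals that span it.

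Of the 13 tested partners and regulators of NRF2 other than KEAP1, 2 rose and 0 fell, and the median difference was -0.01. Over all genes tested, 8.71% passed higher and 7.49% lower. The risers were both relatives of NRF2 in the cap'n'collar family. Nfe2, which encodes the p45 subunit of NF-E2, known from the megakaryocyte and erythroid lineages, stood at 7.68, 7.94 and 7.60 in wt and at 8.50, 8.37 and 8.55 in ki. Its ki arrays were all higher, by 1.66-fold (0.73, SE 0.111, adjusted p = 0.00629), and it passed in 17 of 18 alternatives. Nfe2l3, which encodes NRF3, was detected on no wt array and on all 3 ki arrays, at 6.23, 5.97 and 6.57. It met the detection filter only through the ki arrays, so its adjusted p (0.0112) is not separate support for the rise. It was at least 1.43-fold higher against the lowest detected level of the wt arrays. Its fitted difference of 1.15 (wt mean 5.11, ki mean 6.26) depends on values below detection. Its other tested probe gave 0.88 (adjusted p = 0.00684 over all probes).

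The genes that form NRF2's immediate machinery did not pass. Cul3 and Rbx1, the scaffold and RING subunits of the KEAP1 ligase, differed by 0.06 and -0.08, and Btrc and Gsk3b, of the KEAP1-independent degradation route, by 0.11 and 0.04. The small MAF partners Maff and Mafg differed by -0.34 (adjusted p = 0.0853) and -0.13, and Bach1, the repressor that competes for the same elements, by -0.11. Sqstm1, which encodes p62, a KEAP1-binding autophagy receptor, differed by -0.17 (adjusted p = 0.177), and Dpp3, another KEAP1-binding protein, by 0.28 (adjusted p = 0.0873). Nfe2l1, which encodes NRF1, differed by -0.03, and Park7 by -0.01. Bach2 and Mafk were not detected on enough arrays.

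Of the 6 tested enzymes on the glutathione conjugation list, 4 rose and 0 fell, with a median difference of 0.47. Over all genes tested, 8.71% passed higher. The list was chosen with earlier results of these data known, so the count describes these 6 genes and not the whole enzyme family. Gsta4, a transferase active on lipid peroxidation products, stood at 6.12, 6.16 and 6.74 in wt and at 7.55, 7.54 and 7.43 in ki. It was 2.25-fold higher (1.17, SE 0.169, adjusted p = 0.00517). Gsta3, another alpha class transferase, stood at 7.95, 7.99 and 8.20 in wt and at 9.32, 8.98 and 9.22 in ki. It rose 2.18-fold (1.12, SE 0.119, adjusted p = 0.00152). Neither gene's groups overlapped, and Gsta3 passed in 18 of 18 alternatives and Gsta4 in 17. The microsomal transferase Mgst1 rose 1.47-fold at its brightest probe (0.56, SE 0.0699, adjusted p = 0.00299), while its other tested probe differed by 0.30 and did not pass (adjusted p = 0.115 over all probes). Gstp1, which has a near-identical copy in the mouse genome that a probe may not tell apart, rose 1.30-fold (0.38, SE 0.0877, adjusted p = 0.031) and passed in 7 of 18 alternatives. Its other tested probes differed by 0.30 and 0.21 and did not pass (adjusted p = 0.0949 and 0.627 over all probes). Scaled to each array's median, where the median gene stood at -0.217, Mgst1 (0.245, adjusted p = 0.349) and Gstp1 (0.063, adjusted p = 0.823) did not pass. Gstp1 also did not pass on removal of a single array other than ki replicate 3 (adjusted p = 0.0771 to 0.101), nor with no detection filter, detected-probe scaling or the mean of its probes (adjusted p = 0.0608, 0.0868 and 0.141). Gstm1 and Gstm2 differed by 0.00 and -0.15. These 4 higher genes were measured on the same arrays on which 9 of 9 mesothelial markers were higher, and the part of those cells was not tested.

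Quinone and aldehyde detoxification had 2 of 6 tested genes higher and 1 lower, where 8.71% of all genes passed higher and 7.49% lower. Aldh1a1, a retinaldehyde dehydrogenase, rose 1.71-fold, from 9.04 ± 0.156 to 9.82 ± 0.165 (SD), at an adjusted p of 0.00705. Ephx1, microsomal epoxide hydrolase, rose 1.42-fold, from 11.15 ± 0.0462 to 11.66 ± 0.0761 (SD), at an adjusted p of 0.0062. Cbr1, a carbonyl reductase, fell 1.38-fold, from 9.53 ± 0.118 to 9.07 ± 0.181 (SD), at an adjusted p of 0.0391. Scaled to each array's median, where the median gene stood at -0.217, Ephx1 did not pass (0.233, adjusted p = 0.374). Cbr1 missed the threshold without any 1 array other than ki replicate 2 (adjusted p = 0.0626 to 0.124), with the authors' normalised intensities (adjusted p = 0.052), with no further background correction (adjusted p = 0.054) and with no detection filter (adjusted p = 0.0631). Nqo2, the paralogue of Nqo1, differed by 0.25 (SE 0.074, adjusted p = 0.0652), opposite in sign to Nqo1. Cbr3 and Akr1b8 differed by -0.02 and 0.01.

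Enzymes that act on superoxide and peroxide had 1 of 6 lower and 0 higher, where 7.49% of all genes passed lower. Sod3, the extracellular superoxide dismutase that binds matrix, stood at 10.16, 9.93 and 10.29 in wt and at 8.96, 8.69 and 8.76 in ki. With no overlap between genotypes it was 2.50-fold lower (-1.32, SE 0.121, adjusted p = 0.000915), larger in size than the difference of any of the 9 tested members of the set, and it passed in 18 of 18 alternatives. On the same arrays 5 of 10 fibroblast markers were lower and the other 5 did not pass. The part of fibroblasts in the Sod3 difference was not tested. The intracellular dismutases Sod1 and Sod2 differed by 0.18 (adjusted p = 0.176) and 0.06, catalase (Cat) by 0.14, and the glutathione peroxidases Gpx1 and Gpx4 by 0.23 (adjusted p = 0.113) and -0.10.

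Of 5 tested subunits of the oxidant-producing NADPH oxidases, 1 rose and 0 fell, where 8.71% of all genes passed higher. Ncf4, the p40 subunit of the phagocyte oxidase, stood at 11.12, 11.23 and 11.13 in wt and at 11.45, 11.50 and 11.47 in ki. It was 1.24-fold higher (0.31, SE 0.0715, adjusted p = 0.0296), and it did not pass when a single array was removed, whichever it was (adjusted p = 0.0604 to 0.0976). It also missed the threshold with no detection filter (adjusted p = 0.0723), and under both median scalings (0.038 and 0.245). Nox4, the oxidase of fibroblasts, differed by 0.01 (SE 0.115, adjusted p = 0.95).

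**Figure D3:**
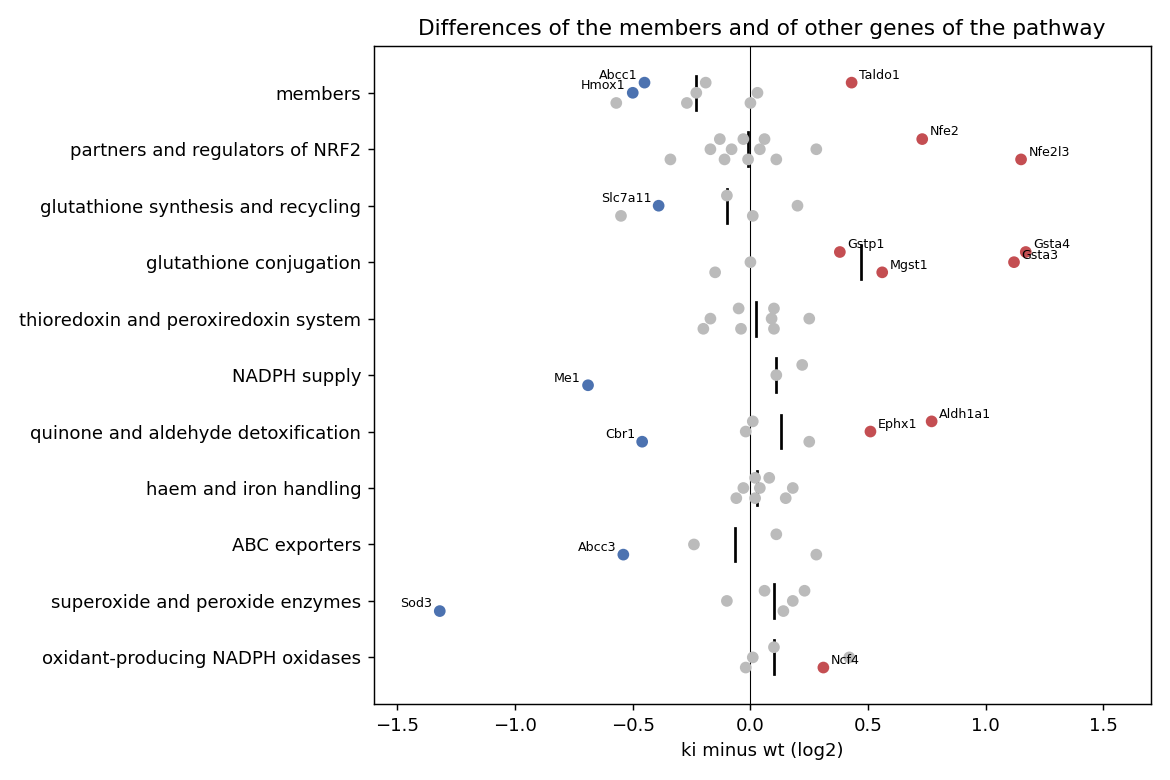
Difference ki minus wt (log2, x axis) of each tested gene, grouped by list (rows), with genes higher in ki in red and labelled, genes lower in blue and labelled, genes that did not pass in grey, and each list's median as a black bar. The lists were chosen with earlier results of these data known. The glutathione conjugation list has 4 of 6 genes higher, and Sod3 at -1.32 is the lowest point of the plot.

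Over the 10 lists, 9 of 64 tested pathway genes were higher in ki and 5 lower, with a median difference of 0.04. These are 14.1% and 7.81% of the pathway genes tested, where 8.71% and 7.49% of all genes passed. The split turned with the scaling, to 5 higher and 7 lower when arrays were scaled to their medians. It was 7 higher and 6 lower when they were scaled on probes detected on all arrays. No test of the difference between these genes and the 9 tested members was made. The split of counts over all genes varied with the scaling: 907 were higher and 780 lower after quantile normalisation. Scaling to the median of probes detected on all arrays gave 872 higher and 866 lower. Scaling to each array's median gave 361 higher and 1302 lower, and moved the median gene from 0.007 to -0.217. That array median was taken over all probes and fell among those not detected, since 38.87% to 40.92% of probes were detected per array. Under that scaling Hmox1, Nqo1, Gclm and Srxn1 stood at -0.743, -0.751, -0.506 and -0.472, each below the median gene, and the members' median was -0.47. Scaling over probes detected on all arrays left the median gene at -0.01 and the members' median at -0.26.

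**Figure D4:**
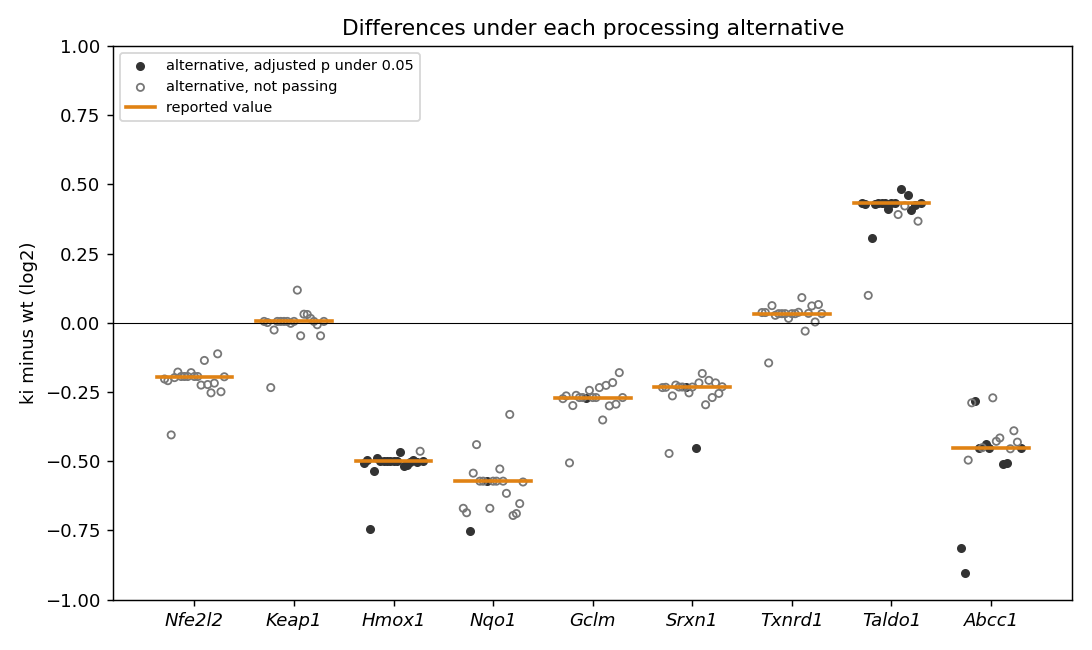
Difference ki minus wt (log2, y axis) of each of the 9 tested genes (x axis) as reported (orange line) and under each processing alternative (points, filled where the adjusted p was under 0.05). All Hmox1 points lie between -0.74 and -0.46 and all but 1 are filled, whereas the Keap1 and Txnrd1 points are spread about 0 and none is filled.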

How the data were processed

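RNA of lung fibroblasts from 3 wt and 3 ki mice was read on Illumina mouse bead arrays after biotin labelling, per the labels' protocols. Per the file headers, the authors deposited a linear intensity and a detection p-value for each probe and array. From 28.59% to 32.02% of intensities per array were below 0, as background subtraction leaves them. A second deposited table holds normalised intensities with array medians of 15.77 to 15.82, identical to the series values in 100% of cells; its normalisation method is not given in the sources used here.

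The non-normalised intensities were corrected by normexp in limma (version 3.58.1, R 4.3.3), with negative-control moments inferred from the detection p-values and an offset of 16. They were then taken to the log2 scale and quantile normalised. A probe was tested if its detection p was under 0.05 on 3 or more of the 6 arrays, which kept 18249 probes. lmFit and eBayes gave ki minus wt with 4 residual degrees of freedom. Each gene was represented by its brightest tested probe (10412 genes). Benjamini-Hochberg adjustment ran over all genes, or over all probes where single probes are given. Where 1 genotype had no detected array, the fold was set against the lowest detected level there and is given as "at least". Array annotation, updated by gene identifier, gave 1 symbol for 34885 probes, several for 18 and none for 10378.

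The members, lists and motifs were chosen with earlier results of these data known. A first fit, with quantile normalisation before log2 and a model over 1 probe per gene, was replaced by the one above after its values had been seen; it is kept as an added alternative. The genes named are all members, the passing genes of each list, up to 2 of smallest p where none passed, and the 5 genes nearest to Nfe2l2. Other list genes were named after their values were seen, to show what each list holds.

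On data simulated over 10412 genes, 200 genes were changed in each of 5 runs. Of those changed by 0.5 (log2) 18.4% were found, of those changed by 1 75.6%, and 4.3% of calls were false. In the measured data 1687 genes passed, so these rates need not hold there. The recovery at 1 missed the 80% first required of this check, and that requirement was dropped after the result was seen. Changes of these sizes can be missed, at a rate in the measured data that the simulation does not give. The alternatives varied background, offset, scaling, detection filter, variance model, array weights, probe summary, left-out arrays and thresholds. The headers identify no slide, so none was used as a block. Plots used matplotlib 3.10.9 under Python 3.11.15.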

Additional observations from a re-analysis of the deposited data

How the results depend on the processing

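Of the 9 tested members, 7 kept their direction in all 18 alternatives (17 for Abcc1); Keap1 and Txnrd1, which passed in none, did not. Keap1 was at -0.234 when arrays were scaled to their medians, at -0.026 when scaled on probes detected everywhere and at -0.002 with array weights. It was at -0.047 without wt replicate 1, at -0.007 without ki replicate 3 and at -0.047 without the brightest wt and dimmest ki arrays. Keap1 was at 0.118 with the mean of a gene's probes. Removing single arrays moved Keap1 to at most 0.031 and Txnrd1 to at most 0.091. Txnrd1 was at -0.145 under median scaling and at -0.03 without wt replicate 3. The members passing higher numbered 0 under median scaling, at an adjusted p under 0.01 and at 1.5-fold or more. The members passing lower numbered 1 when scaled on probes detected everywhere, 1 with detection p under 0.01 on all arrays (where Abcc1 was not tested), 4 with eBayes with trend and robust, 1 at an adjusted p under 0.01 and 0 at 1.5-fold or more. Of pathway genes, 5 passed higher and 7 lower under median scaling, the reverse of 9 and 5 as reported; 16 passed higher with trend and robust and 5 at 1.5-fold, and 2 passed lower at 0.01 and 2 at 1.5-fold. All genes passing numbered 1687, against 733 at 0.01 and 808 at 1.5-fold. Without a single array, 1010 to 1252 genes passed, members higher ranged from 0 to 1 and lower from 1 to 2, and pathway genes higher from 7 to 8 and lower from 2 to 4. With wt replicate 1 and ki replicate 2 both left out these counts were 622, 0 and 0, and 3 and 3, and Nfe2l3 (adjusted p = 0.05), Nfe2 (0.0553), Gsta4 (0.0599), Ephx1 (0.0765), Slc7a11 (0.129), Abcc3 (0.0638), Gstp1 (0.189) and Ncf4 (0.197) did not pass; fewer samples entered that fit. Other causes were not tested. Same-numbered wt and ki arrays deviated from their group means with correlations of 0.00407, 0.0143 and 0.105 across probes, so the numbers were not taken to pair the samples. With a replicate block 1205 genes passed, 1 member higher and 2 lower, with 7 pathway genes higher and 5 lower; Gstp1 (adjusted p = 0.0654) and Ncf4 (0.0706) were lost. The fit added after seeing the data gave 1879 genes, 1 member higher and 2 lower, and 10 and 5 pathway genes. Abcc1 lies close to background, Gclc and 5 probes in all were not detected, and these arrays bound no change there.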
